A study of Rattus norvegicus with 10 samples.

Results

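The genes described here encode the enzymes, transporters and regulators by which the liver takes up sugar, breaks it down, makes new glucose and stores it as glycogen. A list of 35 genes of these routes was used, and each gene was represented by the probe set with its symbol that had the highest mean over all 10 arrays. Of the 35, 33 had a probe set naming that gene alone, among 14218 genes tested. The other 2 members, G6pc and Hk3, were not analysed here as genes. The study compared liver RNA from Harlan Sprague Dawley rats fed HMB (2-hydroxy-4-methoxybenzophenone, the sunscreen agent oxybenzone) at 10000 ppm in the diet for 13 weeks with that from rats given 0 ppm, with 5 animals per group and 1 rat genome expression array per animal. All animals ate the same base diet (NTP-2000). HMB replicate 1 carried a dose label of 0 ppm against a title and a chemical label of HMB, and was kept in the HMB group. Age, sex and cage were not given, and since rats were housed 5 per cage, a cage effect and an HMB effect cannot be told apart if each group was 1 cage.

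In the liver, glycolysis and gluconeogenesis run in opposite directions through the same reversible reactions, and separate enzymes at a few committed steps set the direction. Gluconeogenesis makes glucose from lactate and amino acids between meals, while glycolysis and glycogen synthesis dispose of glucose after a meal. Several of these genes are regulated at transcription by fasting and feeding, Pck1 through cyclic AMP and glucocorticoids and Pklr through carbohydrate. Tissues other than liver use different isozymes for many of the same steps, such as hexokinases in place of glucokinase.

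The promoters of Pck1 and Pklr are shown because these genes stand at opposing committed steps and took opposite extremes in 1 HMB animal described further on. That of Pfkfb3 is shown because this gene had the smallest p among the committed steps of glycolysis. All are from RefSeq on build GRCr8, 250 bases before to 50 after the gene start, and 33 of the 35 members had such a window. The window of Pck1 is at chr3:182348322-182348621, that of Pklr at chr2:176841014-176841313 and that of Pfkfb3 at chr17:71944683-71944982, all on the plus strand. Capitals mark matches on either strand to ACGTCA (the core of a cyclic AMP response element), CACGTG (an E-box), ACGTG (the core of a hypoxia response element, which every CACGTG contains) and the frame of the carbohydrate response element, a pair of E-box ends at a fixed spacing.
Pck1: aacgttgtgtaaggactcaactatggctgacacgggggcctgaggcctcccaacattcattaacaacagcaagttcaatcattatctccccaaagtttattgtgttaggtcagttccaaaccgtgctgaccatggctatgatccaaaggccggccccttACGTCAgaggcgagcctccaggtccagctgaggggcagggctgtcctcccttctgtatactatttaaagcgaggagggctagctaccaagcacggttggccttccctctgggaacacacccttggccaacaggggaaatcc
Pklr: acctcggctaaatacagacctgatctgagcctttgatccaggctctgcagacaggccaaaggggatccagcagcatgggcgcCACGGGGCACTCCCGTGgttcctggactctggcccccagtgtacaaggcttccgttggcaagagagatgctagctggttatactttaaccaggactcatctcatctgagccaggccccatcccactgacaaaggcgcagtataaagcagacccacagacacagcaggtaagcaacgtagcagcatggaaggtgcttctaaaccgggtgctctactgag
Pfkfb3: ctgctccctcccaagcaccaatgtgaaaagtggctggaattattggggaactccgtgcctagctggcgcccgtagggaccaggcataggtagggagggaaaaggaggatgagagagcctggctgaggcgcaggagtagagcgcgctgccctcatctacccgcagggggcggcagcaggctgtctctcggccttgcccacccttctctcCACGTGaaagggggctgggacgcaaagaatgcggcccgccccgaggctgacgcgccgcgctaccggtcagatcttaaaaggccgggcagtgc

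In Pck1 the ACGTCA match lay at -91 to -86 from the gene start. In Pklr the carbohydrate frame lay at -168 to -152, and it was found in 0.182% of all 33469 promoter windows and in no other member. In Pfkfb3 the CACGTG match lay at -42 to -37. Among the 33 members with a window, ACGTCA was found in 4 (Ldha, Pck1, Slc37a4 and Tpi1), or 12.1%, against 7.94% of all windows. CACGTG was found in 2 (Ldha and Pfkfb3), or 6.06%, against 6.42% of all windows. ACGTG was found in 15, or 45.5%, against 19.3% of all windows, and some members have more than 1 window. The 15 were Aldoa, Aldoc, Eno1, Eno2, Gapdh, Gbe1, Gpi, Hk1, Hk3, Ldha, Pfkfb3, Pfkm, Pgam1, Pygl and Slc2a1. A match is a run of letters, not a measured binding site.

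None of the 33 measured members passed the test between HMB and control livers. Over all genes 244 of 14218, or 1.72%, passed at a Benjamini-Hochberg adjusted p under 0.05 (limma, a linear model with moderated variance), 0.76% higher in HMB and 0.957% lower. At an unadjusted p under 0.05, 3 members passed (9.09%), against 24.9% of all genes. They were Gys2, the liver glycogen synthase, which lay lower in HMB, and Pfkfb3 and Aldoc, which lay higher. In 0 members did the 5 HMB values and the 5 control values not overlap, against 6.12% of all genes. The log2 differences, HMB minus control, ran from -0.28 for Gys2 to 0.31 for Hk2, with 13 above 0 and 20 below. Their median was -0.05, and that of all genes was -0.02. In 32 of 33 members the 95% interval of the difference lay inside a 1.5-fold change in either direction, Hk2 being the exception, against 86.1% of all genes. The number of arrays, 5 per group, limits the precision of each value. By mean signal, 2 members were among the dimmest 25% of genes and 9 in the next 25%. Detection calls were not used, so the intervals of these members describe the signal and need not bound a change in the transcript.

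**Figure D1:**
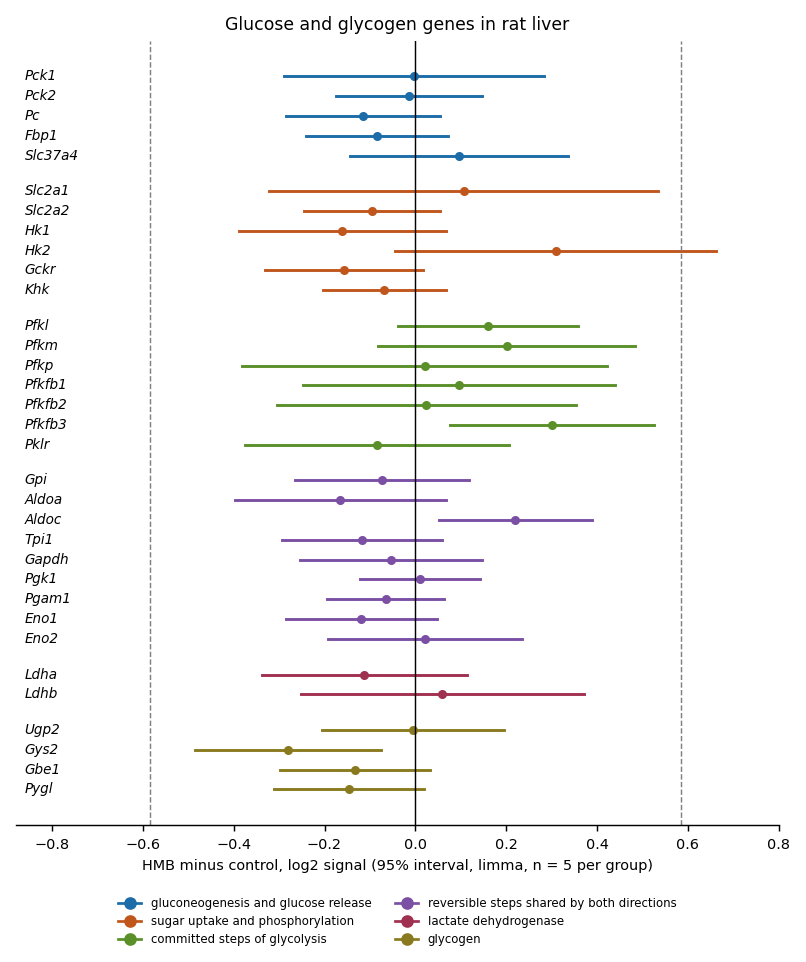
The log2 difference between HMB and control livers (point) with its 95% interval from limma (line, n = 5 per group) for each of the 33 measured members, coloured by pathway arm, with dashed lines at 1.5-fold. Of the 33 intervals 32 lie between the dashed lines, and that of Hk2 reaches 0.66.

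The gluconeogenic arm had 5 measured members, 0 of them called, with a median log2 difference of -0.01. Pck1, the cytosolic phosphoenolpyruvate carboxykinase that commits carbon to glucose, read 13.35, 12.85, 13.08, 13.30 and 13.11 on the log2 scale in controls 1 to 5. In HMB animals 1 to 5 it read 13.24, 13.22, 12.67, 13.27 and 13.28. HMB 3 lay below all controls and the other 4 lay inside the control range. The group means were 13.14 ± 0.20 (SD, n = 5) and 13.14 ± 0.26, the difference was 0.00 with a 95% interval from -0.29 to 0.28 (limma adjusted p = 0.991), and without HMB 3 it was 0.11 (adjusted p = 0.522).

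Pc, pyruvate carboxylase of the mitochondrion, had the smallest p of this arm. It read 9.40, 9.67, 9.56, 9.39 and 9.56 in controls, and 9.53, 9.41, 9.28, 9.38 and 9.39 in HMB. The groups overlapped, with 2 HMB animals below all controls, and the log2 difference was -0.12 ± 0.08 (SE, limma adjusted p = 0.364). Fbp1, the fructose bisphosphatase that bypasses phosphofructokinase, differed by -0.08, Pck2, the mitochondrial carboxykinase, by -0.01, and Slc37a4, the transporter that brings glucose 6-phosphate into the endoplasmic reticulum, by 0.10. The adjusted p of Fbp1, Pck2 and Slc37a4 ran from 0.479 to 0.921.

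G6pc encodes the catalytic subunit of glucose 6-phosphatase, the last step of glucose release. The annotation assigns 4 probe sets to this gene and 2 others at once, so their signal cannot be attributed to 1 of the 3 genes, and they entered no gene test. Of these, 2 varied widely between animals of the same group, with residual SDs of 0.84 and 0.66 on the log2 scale, at the percentiles 99.8 and 99.6 of all probe sets. The brighter one read 9.80, 11.30, 11.07, 11.55 and 11.05 in controls and 12.10, 11.44, 10.36, 11.02 and 11.05 in HMB. Its lowest values were those of control 1 and HMB 3 and its highest that of HMB 1, and the groups overlapped. The difference was 0.24 ± 0.33 (SE, limma adjusted p = 0.679 over probe sets). The other 2 probe sets varied less, with differences of -0.29 and -0.28 (limma adjusted p of 0.0893 and 0.0876 over probe sets). In the latter the groups did not overlap, at 6.29 to 6.58 in controls and 6.04 to 6.25 in HMB. Such a lack of overlap was seen in 6.12% of the genes tested, and this signal cannot be attributed to G6pc.

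Sugar uptake and phosphorylation had 6 measured members, 0 of them called, with a median of -0.08. Slc2a2, the GLUT2 glucose transporter of hepatocytes, read 12.00, 12.20, 12.18, 12.11 and 12.18 in controls, and 12.01, 12.03, 12.05, 12.15 and 11.95 in HMB. Apart from HMB 5 the HMB animals lay inside the control range. The difference was -0.10 ± 0.07 (SE, limma adjusted p = 0.395). Gckr, the protein that holds glucokinase inactive in the nucleus, had the smallest p of this arm. It read 10.03, 10.27, 10.40, 10.23 and 10.27 in controls and 10.17, 10.01, 10.16, 10.07 and 10.001 in HMB, a difference of -0.16 ± 0.08 (SE, adjusted p = 0.242). Control 1 was the reason for the overlap, since all 5 HMB animals lay below the other 4 controls. Khk, ketohexokinase of fructose metabolism, differed by -0.07 (adjusted p = 0.504).

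The remaining members of this arm are used mainly outside the hepatocyte. Slc2a1, the GLUT1 transporter, had the largest spread within groups of all members, a residual SD of 0.37. It read 6.03, 5.51, 5.59, 5.70 and 5.22 in controls and 5.66, 6.04, 5.01, 6.04 and 5.81 in HMB (difference 0.11, 95% interval -0.32 to 0.53, limma adjusted p = 0.763). The lowest array of all 10 was HMB 3 and the highest was HMB 2, so the HMB group enclosed the controls. Without HMB 3 the difference was 0.28 (limma adjusted p = 0.284).

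Hk2, the insulin-regulated hexokinase of muscle and fat, read 2.31, 2.12, 2.36, 2.47 and 2.16 in controls, among the dimmest 25% of signals. In HMB it read 2.15, 2.26, 2.59, 3.03 and 2.93. HMB 3, 4 and 5 lay above all controls, and HMB 1 and 2 lay inside the control range. The difference was 0.31 ± 0.16 (SE, limma adjusted p = 0.253, 95% interval -0.04 to 0.66). With HMB 1 and 2 left out it was 0.57 and passed (limma adjusted p = 0.0400), the single call of a member in any of the 22 other settings. In that setting 704 of 14218 genes, or 4.95%, passed, against 1 of the 33 members. HMB 1 and 2 had the lowest HMB values of Hk2, so leaving them out could only raise the difference. With HMB 3 to 5 left out the Hk2 difference was -0.08 (adjusted p = 0.820). HMB 3 to 5 were also the arrays with the highest signal of spiked poly-A transcripts relative to that of the hybridisation controls (a log2 difference). It was -1.54, -1.78 and -1.47 in HMB 3, 4 and 5, against -2.19 to -1.90 in controls and -1.92 and -1.96 in HMB 1 and 2. HMB 1 and 2 overlapped only control 3 in this measure, so that it and the HMB diet can hardly be told apart. With the measure as a covariate the Hk2 difference was 0.002 (limma adjusted p = 0.997). Because the measure nearly separates the groups, that fit cannot assign the Hk2 values to the measure or to the diet.

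For Hk1, the hexokinase of most tissues, the probe set used gave -0.16 ± 0.10 (SE, limma adjusted p = 0.349). Its other 4 probe sets gave differences from 0.04 to 0.34, and the mean over all 5 lay on the other side of 0, at 0.10 (adjusted p = 0.323). The direction of Hk1 therefore depended on the probe set.

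Among the committed steps of glycolysis 0 of 7 members were called, 6 lay above 0, and the median was 0.10. Of 4 measured genes of these steps outside the list, 1 lay above 0 and 3 below, with a median of -0.13. Pfkfb3, an enzyme that makes the phosphofructokinase activator fructose 2,6-bisphosphate, read 4.61, 4.37, 4.63, 4.32 and 4.42 in controls. In HMB it read 4.66, 4.94, 4.81, 4.95 and 4.50. All HMB animals but HMB 5 lay above all controls. The difference was 0.30 ± 0.10 (SE, limma unadjusted p = 0.0128, adjusted p = 0.113), or 1.23-fold with a 95% interval from 1.05 to 1.44. Both other probe sets of Pfkfb3 were dimmer and differed by -0.13 and 0.07, and the mean over all of them was 0.08 (adjusted p = 0.499).

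Pklr, the pyruvate kinase of liver and red cells, read 8.81, 8.69, 8.74, 8.88 and 8.86 in controls, a narrow band. In HMB it read 8.60, 8.68, 9.21, 8.75 and 8.32. HMB 3 lay above all controls while HMB 1, 2 and 5 lay below all of them. The SD was 0.08 in controls and 0.32 in HMB (n = 5 each), the difference was -0.08 ± 0.13 (SE, limma adjusted p = 0.716), and without HMB 3 it was -0.21 (adjusted p = 0.219). Its second probe set differed by -0.23 (adjusted p = 0.381 over probe sets).

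Of the phosphofructokinase subunits, Pfkl, the liver form, differed by 0.16 (limma adjusted p = 0.289) and Pfkm, the muscle form, by 0.20 (adjusted p = 0.348). Pfkp, the platelet form, read 4.72, 5.04, 4.55, 5.56 and 4.33 in controls and stayed between 4.81 and 4.95 in all HMB animals. Its control SD was 0.48 against 0.05 in HMB (n = 5 each), with control 4 the highest and control 5 the lowest of all 10, and the means differed by 0.02 (adjusted p = 0.955). Pfkfb1, the liver form of the bifunctional enzyme, differed by 0.10 (adjusted p = 0.729), with HMB 1 and 2 at 9.92 and 10.06, above all controls, and the other 3 between 9.28 and 9.47. With HMB 3 to 5 left out the Pfkfb1 difference was 0.47 and with HMB 1 and 2 left out -0.15. Pfkfb2, the heart form, differed by 0.02 (adjusted p = 0.935), while another of its 4 probe sets differed by 0.40 (adjusted p = 0.0917 over probe sets).

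The reversible steps had 9 measured members, 0 of them called, with a median of -0.07 and 6 below 0. Aldoc, the aldolase of brain, had the smallest p of this arm and a dim signal. It read 3.84, 3.61, 3.69, 3.65 and 3.64 in controls and 3.80, 3.83, 3.94, 4.09 and 3.89 in HMB. The groups overlapped only through control 1, and 3 HMB animals lay above all controls. The difference was 0.22 ± 0.08 (SE, limma unadjusted p = 0.0145, adjusted p = 0.118), or 1.16-fold. After cyclic loess normalization it was 0.11 (adjusted p = 0.402).

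Pgam1 and Pgk1 had the smallest residual SDs of the 33 members, 0.04 and 0.05. Pgam1, phosphoglycerate mutase, ran from 10.88 to 11.06 over all 10 animals, with 4 HMB animals below all controls and a difference of -0.07 (limma adjusted p = 0.501). Pgk1, phosphoglycerate kinase, ran from 11.52 to 11.67 and differed by 0.01 (95% interval -0.12 to 0.14, adjusted p = 0.933). Eno1, the enolase of most tissues, differed by -0.12 and had 4 HMB animals below all controls (adjusted p = 0.347). Tpi1, triose phosphate isomerase, differed by -0.12 (adjusted p = 0.372), Aldoa, the aldolase of muscle, by -0.17 (adjusted p = 0.345), Gpi, glucose 6-phosphate isomerase, by -0.07 (adjusted p = 0.622) and Eno2, the neuronal enolase, by 0.02 (adjusted p = 0.910).

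The probe sets naming Gapdh alone were control probe sets of the array, laid along the transcript. A further probe set, annotated to Gapdh and Gapdhl10 together, differed by -0.13 (limma adjusted p = 0.445 over probe sets). The one used, at its 3′ end, read 11.54, 11.44, 11.59, 11.46 and 11.52 in controls and 11.31, 11.38, 11.77, 11.32 and 11.49 in HMB. HMB 3 was the highest of all 10 and HMB 1, 2 and 4 lay below all controls, with a difference of -0.05 ± 0.09 (SE, limma adjusted p = 0.739). At the 5′ end the difference was -0.17 (adjusted p = 0.463 over probe sets). The 3′ signal minus the 5′ signal, which widens as RNA or its copies shorten, was 1.97, 2.09 and 1.90 in HMB 3 to 5, 1.31 and 1.38 in HMB 1 and 2, and 1.38 to 1.77 in controls. Its part in the other values was not tested.

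Of the lactate dehydrogenase subunits, Ldha, the liver and muscle form, had the smaller p. It read 11.83, 12.13, 11.93, 11.96 and 12.15 in controls, and 12.10, 12.06, 11.63, 11.79 and 11.85 in HMB. HMB 3 and 4 lay below all controls and the difference was -0.11 ± 0.10 (SE, limma adjusted p = 0.511). Ldhb, the heart form, differed by 0.06 (adjusted p = 0.821), with all 5 HMB animals inside the control range of 4.65 to 5.39.

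All 4 glycogen members lay at or below 0, with a median of -0.14 and 0 called. Of 18 measured glycogen genes outside the list, 9 lay above 0 and 9 below, with a median of -0.003. Gys2, the synthase that elongates glycogen in liver, had the smallest p of all 33 members. It read 8.15, 7.89, 8.30, 8.26 and 8.40 in controls and 7.996, 7.80, 7.96, 7.87 and 7.97 in HMB. Every HMB animal lay below 4 of the controls, and control 2 alone caused the overlap. The difference was -0.28 ± 0.09 (SE, limma unadjusted p = 0.0117, adjusted p = 0.109), or 0.824-fold with a 95% interval from 0.714 to 0.950. After cyclic loess it was -0.17 (adjusted p = 0.393).

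Pygl, the liver phosphorylase that breaks glycogen down, read 10.93, 11.13, 10.93, 11.07 and 11.11 in controls and 10.97, 11.01, 10.79, 10.89 and 10.78 in HMB. HMB 3, 4 and 5 lay below all controls, and the difference was -0.15 ± 0.08 (SE, limma adjusted p = 0.249). With HMB 3 to 5 left out it was -0.04 (adjusted p = 0.880). These are the 3 arrays with the highest poly-A measure. With that measure as a covariate the Pygl difference was -0.03, a fit that can hardly tell the measure from the diet. Gbe1, the branching enzyme, differed by -0.13 (adjusted p = 0.289), with 3 HMB animals below all controls. Ugp2, which makes the UDP-glucose that Gys2 adds to the chain, differed by 0.00 (95% interval -0.20 to 0.20, adjusted p = 0.980).

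**Figure D2:**
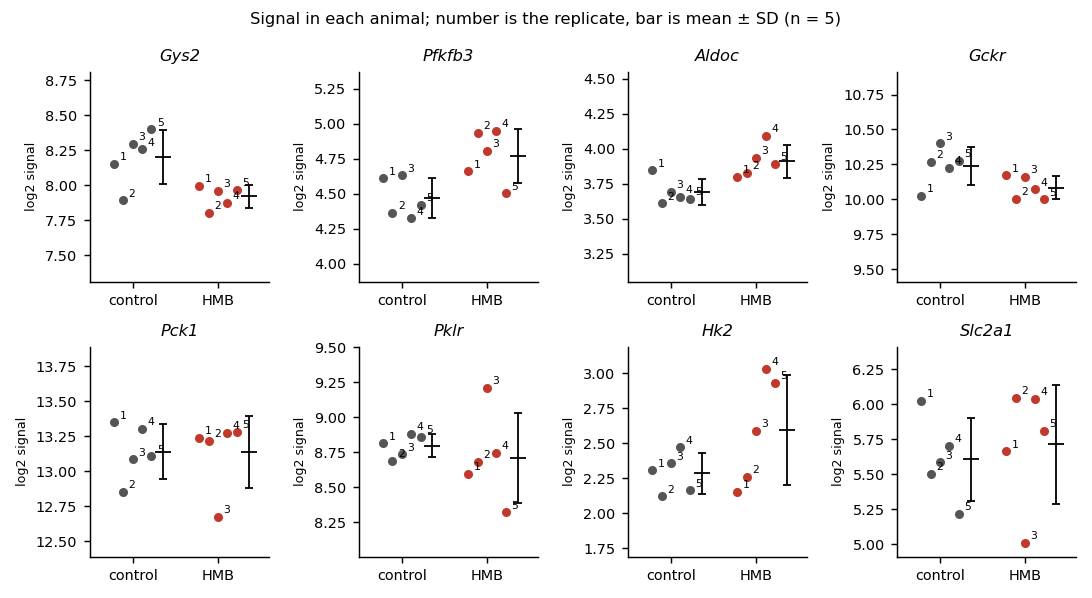
Log2 signal of 8 members in each animal (points numbered by replicate, controls grey, HMB red) with the group mean ± SD (bar, n = 5), each panel spanning the same log2 range. Gys2 overlaps through control 2 and Aldoc through control 1, while HMB 3 is lowest for Pck1 and Slc2a1 and highest for Pklr.

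The highest or lowest value of a member came from HMB 3 in 10 cases, from control 4 and HMB 5 in 8 each, from control 2 and HMB 4 in 7 each, and from the other animals in 3 to 6. HMB 3 had the lowest value of all 10 arrays in 6 members and the highest in 4. Its 6 lowest were Pck1, Pc, Fbp1, Slc2a1, Tpi1 and Ldha, so that 3 of the 5 measured gluconeogenic members were at their lowest in that animal. Its 4 highest were Pklr, Gapdh, Pgk1 and Eno2. Control 1 had the highest Pck1 and the lowest Slc37a4 and Pfkfb1. These are readings of single arrays and were not tested. HMB 3 was also among the arrays with the highest poly-A measure and the widest gap between the 3′ and 5′ Gapdh signals.

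**Figure D3:**
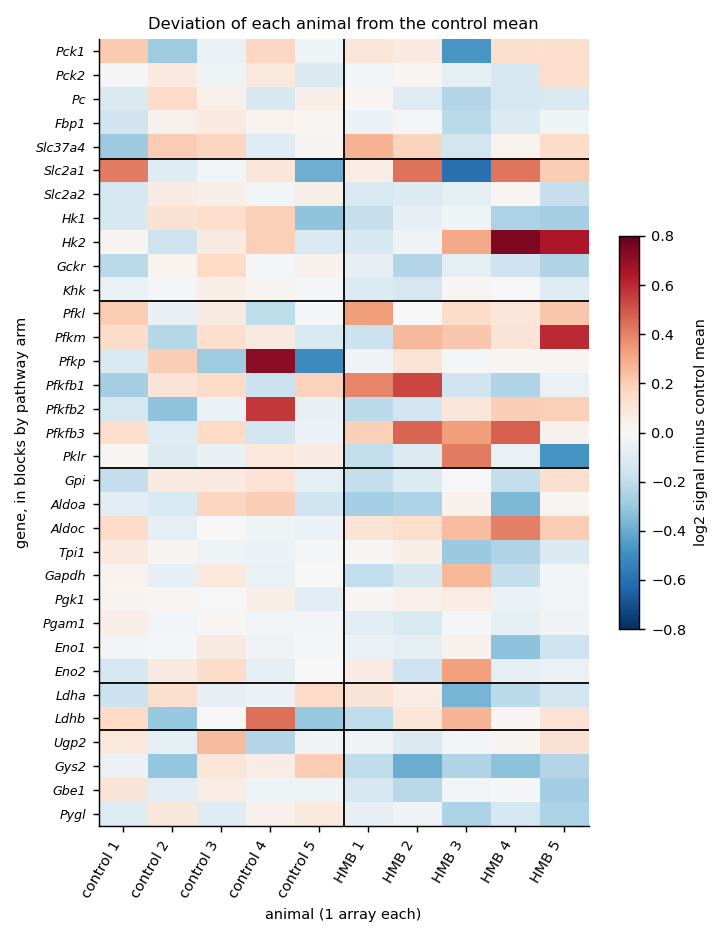
Log2 signal of the 33 measured members (rows, in blocks by pathway arm) in each animal (columns) minus the gene's control mean, with red for higher and blue for lower values. Wide single-animal deviations appear, among others, for Pfkp in control 4 and control 5, Hk2 in HMB 4 and HMB 5, Slc2a1 in HMB 3 and Pfkm in HMB 5.

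The sign of a member's difference went with how bright its probe set was, and over all genes the differences also varied with brightness. Among the 25% of genes with the highest mean signal were 21 members, of which 3 lay above 0 (28.8% of all genes there did), with a median of -0.08 against -0.07 for all genes there. Hk2 and Eno2 were among the 25% with the lowest signal and both lay above 0 (78.8% of all genes there did), with a median of 0.17 against 0.11 for all genes there. In the next 25% were 9 members, 8 of them above 0 (55.5% of all genes there were), with a median of 0.11 against 0.03. Pck2 alone was in the remaining 25%, at -0.01 against a median of -0.12, the lowest of the 4 medians of all genes. Cyclic loess normalization, which evens such trends between arrays, left 5 of the 21 bright members above 0 (median -0.04), 7 of the 9 (median 0.07), Pck2 (0.11) and 1 of Hk2 and Eno2 (median 0.08). The medians of all genes then lay between -0.01 and 0.02 in every group of signal. In bulk liver a lower signal can come from fewer cells of a type or from less RNA per cell, and these cannot be told apart.

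**Figure D4:**
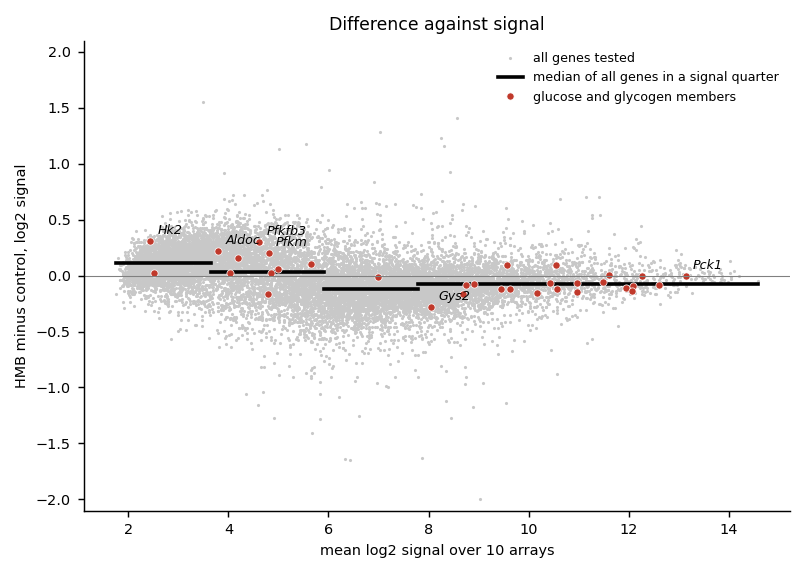
Log2 difference between HMB and control against mean log2 signal for all 14218 genes (grey) and the 33 members (red), with black lines at the median of all genes in each 25% of signal. The 21 bright members sit around a median of -0.08, near the -0.07 of all genes at that brightness.

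Several members belong to cells other than hepatocytes, and markers of such cells differed among animals. The mean of 6 measured macrophage markers of 8 listed ran from 6.65 to 8.54 in controls and from 7.37 to 8.17 in HMB. Control 5 was lowest and control 4 highest, as for Pfkp. The endothelial list had the same extremes, 7.23 in control 5 and 8.57 in control 4, and the stellate list was also highest in control 4. Only the macrophage list was set against the members, so a relation to it cannot be tied to macrophages alone. Over the 10 animals Pfkp had the highest Pearson r with the macrophage mean, 0.86 (permutation p = 0.00387), and a Spearman rho of 0.71 (permutation p = 0.0268). By rho it came after Pgk1, at 0.78 (permutation p = 0.0104), and Ldhb, at 0.73 (permutation p = 0.02). After adjustment over the 33 members none passed (adjusted p = 0.0921 for Pfkp, also for Pgk1 with r = 0.78 and Ldhb with r = 0.77, and a permutation adjusted p of 0.294 for the rho of all 3). Without control 4 and control 5 the r of Pfkp was 0.38, that of Pgk1 0.60 and that of Ldhb 0.42, so the relation rested largely on those animals. With group means removed, the r of Pfkp was 0.86. This relation was examined after the values were seen.

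Of 83 other genes of the same routes and of the pentose phosphate pathway, 70 were measured and 0 were called (limma), with 15 at an unadjusted p under 0.05, or 21.4%, against 24.9% of all genes. Their median was -0.01. Fbp2, the fructose bisphosphatase of muscle, was the only one whose groups did not overlap, or 1.43% against 6.12% of all genes. It ran from 2.85 to 3.13 in controls and from 3.16 to 3.50 in HMB, a dim signal (difference 0.33 ± 0.08, SE, adjusted p = 0.0631). Gsk3b, the kinase that inhibits glycogen synthase, differed by -0.34 ± 0.09 (adjusted p = 0.0733). H6pd, which starts the pentose phosphate route inside the endoplasmic reticulum, differed by 0.38 ± 0.11 (adjusted p = 0.0782).

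The tissue matched its label, with 7 hepatocyte markers averaging 13.62 to 13.73 in controls and 13.58 to 13.67 in HMB. Across 11 marker lists 0 of 58 measured genes were called. The dim lymphocyte list, 5 of 7 genes measured, averaged 2.85 to 3.12 in controls and 3.17 to 3.42 in HMB without overlap. The erythroid list, 5 of 8 measured, averaged 4.70 to 5.15 and 5.03 to 5.46, and the skeletal muscle list, 7 of 8 measured, 3.90 to 4.15 and 4.09 to 4.29. The lists of neutrophil, endothelial, stellate, cholangiocyte, adipocyte and pancreas markers overlapped between the groups. The part of these lists in the members' values was not tested.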

How the data were processed

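Liver RNA of 5 control and 5 HMB rats was hybridised to 1 Affymetrix rat genome array per animal. The authors deposited log2 values for 31099 probe sets, made with RMA per the submitters' processing notes, with no version given, and these were used as they stand. Detection calls and scanner files were not used here.

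Probe sets took their names from the platform annotation, with 20832 naming 1 gene, updated through gene identifiers to the RefSeq table of GRCr8 (20764 matched). Of 57 control probe sets, 6 naming 1 gene were kept. Each of 14218 genes was represented by its probe set with the highest mean. Groups came from the titles, and replicate numbers follow the order of deposition. The limma p-values set each group difference against the spread between animals within a group, after that spread is drawn towards that of all genes. For Pgam1, with a residual SD of 0.04, the SE used was 0.06.

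Tests used limma 3.58.1 in R 4.3.3 (lmFit, eBayes, HMB minus control) with Benjamini-Hochberg adjustment over all genes, a threshold of 0.05 and no filter, tested on simulated data. Relations used 100000 permutations, two-sided. Alternatives were other normalizations, filters on low signal, priors, array weights, averaged probe sets, a covariate for spiked poly-A transcripts, a regrouped HMB 1 and left-out animals.

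Every member is named. Values per animal are given for the smallest p in each arm, the 3 largest residual SDs and a fixed set with Pck1, G6pc, Pklr, Gys2, Pygl, Slc2a2 and Gapdh. The members, lists and alternatives were chosen with earlier results of these data known.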

Additional observations from a re-analysis of the deposited data

Results flagged for a closer look

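In 3 of 66 groups of 5 animals, 1 animal stood apart from the rest by a gap of more than 0.71 of the range of its group (Dixon's 95% limit), where chance alone flags about 1 in 20 groups. Pck1 in HMB 3 read 12.67 on the log2 scale against 13.22 to 13.28 in the other HMB animals. Fbp1 in control 1 read 12.49 against 12.67 to 12.73 in the other controls. Eno1 in control 3 read 9.76 against 9.67 to 9.68 in the other controls.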

How the results depend on the processing

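No paired analysis was possible because the labels give no replicate numbers that link a control animal to an HMB animal. In each of the 22 other settings 0 members were called lower, and 0 were called higher, except that 1 member, Hk2, was called higher with HMB 1 and 2 left out. In that setting 4.95% of all genes were called. The median log2 difference over the members ran from -0.09 to -0.02 over the 22 settings. Over the 713 pairs of a member and a setting, 693 stayed within 1 SD of the reported difference, and 66 had the other sign. Much of the former count was fixed in advance. Leaving out a single animal cannot move a difference by 1 SD, and the signal filters and the other prior leave it unchanged. By member, 16 kept their sign in every setting, Gys2, Pfkfb3 and Aldoc among them, with smallest adjusted p values of 0.0753, 0.0762 and 0.0616.

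The number of all genes called was 82 after cyclic loess, 74 after quantile normalization, 156 without the lowest 50% of signals, 659 with array weights, 30 with HMB replicate 1 counted as control, 0 with HMB 3 to 5 left out, 704 when HMB 1 and 2 were left out and 0 under adjustment for the spiked poly-A transcripts, a measure that nearly separates the groups. With single animals left out it ran from 0 to 1014. It was 1014 without control 1, 353 without HMB 1, 157 without HMB 3 and 15 without control 4. Without HMB 4 or HMB 5 it was 1, and it was 0 for each of control 2, control 3, control 5 and HMB 2. Where it was 0, limma gave between 1612 and 3434 genes at an unadjusted p under 0.05. The cause was not tested.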
